A study of Drosophila melanogaster with 2 samples.

Results

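The maltase family of Drosophila melanogaster comprises the genes Mal-A1 to Mal-A8 and the pair Mal-B1 and Mal-B2, and its transcripts were followed in posterior midguts in which RNAi against Gli (gliotactin, a protein of tricellular junctions) had or had not been induced. The 10 members were taken by name from a transcript table of 13822 loci, through their Entrez identifiers, because that table lists 7 of them under CG symbols and Mal-A1, Mal-A2 and Mal-A3 under the older names LvpH, LvpD and LvpL. All 10 were found. The induced midguts came from 9-day-old females carrying 5966GS-GAL4 and UAS-Gli-RNAi that had received the steroid RU486, which switches on the GeneSwitch driver, and their label gives the condition as knockdown in enterocytes. The uninduced midguts came from females of the same age, with the same driver and the same RNAi transgene, that had received ethanol, and the genotype field reads wild type for both conditions. Each condition was represented by 75 pooled midguts and 3 libraries, which the labels call biological replicates, so p-values measure the spread between libraries and this may be partly technical. RU486 was given to the induced flies alone, so an effect of the drug and one of the knockdown cannot be told apart.

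Maltases are alpha-glucosidases of glycoside hydrolase family 13. In the insect gut, amylase first cuts starch and glycogen into maltose and short oligosaccharides, maltases then release glucose from these products and from sucrose, and transporters carry the glucose into the absorptive cells, the enterocytes. In the fly the Mal-A genes lie side by side in a cluster and were first described, in part, as larval visceral proteins, the origin of the Lvp names.

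Read totals, with 1 transcript row per locus, were 14303722, 8111031 and 10032003 in the induced libraries, against 7319238, 10914491 and 6821908 in the uninduced libraries. Gli had a normalised count of 899 ± 19.1 in the induced and 1962 ± 110 in the uninduced libraries (SD, n = 3 each). Normalised counts are reads divided by a library scaling factor that averages 1. Across the 8236 loci that passed the filter on low counts, 2204 fell in the induced libraries (26.8%) and 2272 rose (27.6%) at an adjusted p under 0.05, and the median log2 fold change was 0.03. Scaled by library totals instead, 1512 fell and 3737 rose, and the median was 0.22, so that 71.2% of calls were rises against 50.8% in the main scaling.

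Maltase transcripts were lower in the induced midguts. Of the 10 members, 9 passed the filter and all of these fell, set against the 26.8% of all tested loci that fell; 0 rose, and Mal-B1 had too few reads to be tested. A fall of at least 2-fold that also passed was seen for 5 of them, Mal-A1, Mal-A3, Mal-A4, Mal-A7 and Mal-B2, and for 7.44% of tested loci. Mal-A1 only just reached 2-fold, and Mal-A8 and Mal-A6 were just short of it. With no filter Mal-A1 was short of it too (log2 fold change -0.984), and with DESeq2 size factors Mal-A8 reached it (-1.018). The count of 5 thus depends on the setting. The median log2 fold change of the 9 was -1.0005, and their values ran from -2.21 to -0.41. In every one of the 9 the highest induced library lay below the lowest uninduced library, which was so for 28.8% of tested loci. Together the 10 members took 0.394%, 0.394% and 0.399% of all reads in the induced libraries, against 0.795%, 0.783% and 0.776% in the uninduced libraries, a mean of 0.395% ± 0.00285 against 0.785% ± 0.00976 (SD, n = 3 each). The dissected tissue was sequenced whole, so fewer cells that make a maltase and less maltase RNA per cell cannot be told apart.

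Mal-A1 was the most abundant member in both conditions. Normalised counts of Mal-A1 stood at 17962, 18292 and 18535 in the induced libraries, against 36813, 36169.9 and 36630.4 in the uninduced libraries. The 2 sets were far apart, each with a narrow spread. The log2 fold change of Mal-A1 was -1.0005 ± 0.044 (SE; edgeR quasi-likelihood test, Benjamini-Hochberg adjusted p = 2.0e-10), which left 49.98% of its uninduced level. Its transcript has 3 exons and lies on the minus strand of chromosome 2R, from 4337166 to 4339404, in the build of the deposited table, which is not named there. At its 3' end it overlaps the neighbouring gene Cyp4e1, on the opposite strand, by 85 bases.

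Mal-A6 and Mal-A8 changed by nearly the same factor as Mal-A1. Mal-A6 had normalised counts of 3981, 3873 and 3888 in the induced libraries, against 7903, 7544 and 7687 in the uninduced libraries. Mal-A8 had 1981, 1929.5 and 2026 in the induced libraries, against 3872, 3907 and 4089.6 in the uninduced libraries. For both genes all induced libraries lay well below all uninduced ones. The log2 fold changes were -0.98 ± 0.045 for Mal-A6 (adjusted p = 3.6e-10) and -0.999 ± 0.049 for Mal-A8 (adjusted p = 6.9e-10, edgeR). Within a library, the log2 ratio of Mal-A1 to Mal-A6, in reads per kb, was 2.27 ± 0.043 in the induced and 2.29 ± 0.022 in the uninduced libraries (SD, n = 3 each; exact permutation test, 2-sided, p = 0.6), and that of Mal-A1 to Mal-A8 was 3.18 ± 0.034 and 3.18 ± 0.043 (induced and uninduced, exact p = 1). Both pairs were chosen after their fold changes were seen, and 3 libraries against 3 cannot give an exact p below 0.1.

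Mal-A3, Mal-A4 and Mal-A7 fell further. Mal-A3 had normalised counts of 2715, 2795 and 2846 in the induced libraries, against 11972, 11546 and 12387 in the uninduced libraries. Mal-A4 had 2148, 2247 and 2150.1 in the induced libraries, against 8694, 8541 and 9036 in the uninduced libraries. The uninduced values of both genes were about 4 times the induced ones, with no overlap. Mal-A3 fell by 2.10 ± 0.049 on the log2 scale, which is 4.30-fold (adjusted p = 2.8e-13), and Mal-A4 fell by 2.01 ± 0.049, which is 4.01-fold (adjusted p = 3.9e-13, edgeR for both). Only 1.95% of tested loci had a lower log2 fold change than Mal-A3, and 2.21% had a lower one than Mal-A4.

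Mal-A7 had normalised counts of 1599, 1479.9 and 1641 in the induced libraries, against 5171, 5085 and 5279 in the uninduced libraries, and fell by 1.72 ± 0.053 on the log2 scale (adjusted p = 4.6e-12, edgeR), which is 3.29-fold. The transcript that stands for it is the longer of its 2 rows, which has the higher mean count. This row overlaps the 5' end of Mal-A8, on the opposite strand, by 315 bases, whereas the shorter row stops 333 bases short of Mal-A8. Reads of the 2 genes in the overlap cannot be separated, since the counting is not stated to use strand. The shorter row gave a log2 fold change of -1.84 ± 0.054 (adjusted p = 3.0e-12, edgeR, an alternative chosen after seeing the data). The reads that only the longer row holds had normalised counts of 247, 238 and 285 in the induced libraries, against 501, 508 and 405 in the uninduced libraries, a log2 ratio of means of -0.88. The stretch that only the longer row holds has 648 bases, of which 315 overlap Mal-A8 and 333 do not. The source of its reads was not tested.

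Mal-A2 showed a smaller difference. Normalised counts of Mal-A2 stood at 5162, 5125 and 5141 in the induced libraries, against 6930.1, 7052 and 7269 in the uninduced libraries. The induced libraries differed from one another by very little, and all of them were below the uninduced ones. Mal-A2 fell by 0.46 ± 0.044 on the log2 scale (adjusted p = 7.6e-07, edgeR), which left 72.6% of its uninduced level, while the other abundant members kept between 23.3% (Mal-A3) and 50.8% (Mal-A6).

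Mal-A5 was scarce. It had 70, 46 and 54 reads in the induced libraries, against 50, 62 and 41 in the uninduced libraries, which are normalised counts of 44.3, 51.6 and 49.0 against 70.0, 58.1 and 63.9. The 2 sets lay close together without overlapping. Mal-A5 fell by 0.41 ± 0.152 on the log2 scale (adjusted p = 0.036, edgeR), and this call was the weakest of the family. Over the alternatives that gave a test the adjusted p ran between 0.018 and 0.218, and 8 of them missed the threshold. The call was lost when libraries were scaled by their totals (adjusted p = 0.218, edgeR), with no filter (adjusted p = 0.052, edgeR) or with the DESeq2 Wald test (adjusted p = 0.200). It was also lost without induced replicate 1 (adjusted p = 0.136), induced replicate 3 (adjusted p = 0.064), uninduced replicate 1 (adjusted p = 0.128) or uninduced replicate 3 (adjusted p = 0.056, edgeR for all 4). Mal-A5 ends 77 bases before Mal-A6 begins on the same strand.

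The Mal-B pair, on chromosome 2L, had few reads. Mal-B2 had 27, 12 and 13 reads in the induced libraries, against 37, 79 and 48 in the uninduced libraries, which are normalised counts of 17.1, 13.5 and 11.8 against 51.8, 74.0 and 74.8. All induced values were low and all uninduced values were higher, with uninduced replicate 1 the lowest of its condition. Mal-B2 fell by 2.21 ± 0.221 on the log2 scale (adjusted p = 1.2e-06, edgeR), which is 4.62-fold and the lowest log2 fold change of the family, with the widest error. Mal-B1 had 5, 2 and 2 reads in the induced libraries, against 2, 5 and 2 in the uninduced libraries. The ratio of its scaled totals, induced over uninduced, was 0.678 with an exact (Clopper-Pearson) 95% interval from 0.238 to 1.93, which covers counting error only, so a change of Mal-B1 was not detectable at this depth.

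**Figure D1:**
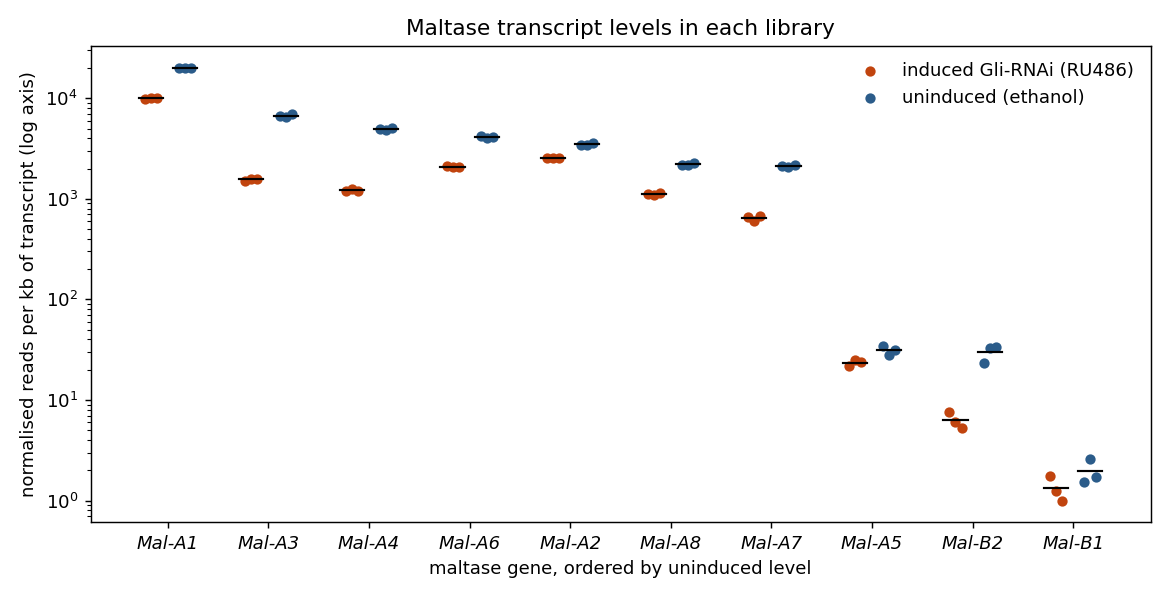
Normalised reads per kb of transcript (log axis) of each maltase gene in each library. Points are libraries, 3 per condition, with induced libraries left of uninduced libraries for each gene, and bars are means. The induced points lie below the uninduced points for every gene but Mal-B1, and Mal-A5, Mal-B2 and Mal-B1 lie far below the other 7 in both conditions.

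Levels of different members were compared per kb of transcript, which ranged from 1777 to 2448 bases in length. Mal-A1 stood at 10013 ± 158 normalised reads per kb in the induced libraries and 20032 ± 182 in the uninduced libraries (SD, n = 3 each), rank 110 and rank 66 among the 8236 tested loci. In the induced libraries the order after Mal-A1 was Mal-A2 (2527 ± 9.04), Mal-A6 (2082 ± 31.3), Mal-A3 (1558 ± 36.9), Mal-A4 (1228 ± 31.8), Mal-A8 (1108 ± 27.0) and Mal-A7 (643 ± 34.1). In the uninduced libraries it was Mal-A3 (6694 ± 235), Mal-A4 (4928 ± 143), Mal-A6 (4102 ± 96.1), Mal-A2 (3481 ± 84.3), Mal-A8 (2216 ± 65.5) and Mal-A7 (2115 ± 39.7). Within the family Mal-A2 thus held rank 2 in the induced and rank 5 in the uninduced libraries, and Mal-A3 held rank 4 in the induced and rank 2 in the uninduced libraries.

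The scarce members closed the order in both conditions. Mal-A5 had 23.5 ± 1.81 normalised reads per kb in the induced and 31.2 ± 2.90 in the uninduced libraries, Mal-B2 had 6.31 ± 1.21 and 29.9 ± 5.84 in the same order of conditions, and Mal-B1 had 1.33 ± 0.379 and 1.95 ± 0.556. Of the 9 pairs of neighbours in the order, 0 overlapped between libraries in the induced condition. In the uninduced condition 1 pair overlapped, Mal-A5 and Mal-B2, whose levels did not differ beyond their spread. Read from its shorter row, Mal-A7 had 732 ± 35.9 reads per kb in the induced and 2615 ± 84.2 in the uninduced libraries, and then stood above Mal-A8 in the uninduced condition, so the order of these neighbours there depends on the row.

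The make-up of the family's transcripts differed between conditions. Mal-A1 provided 52.2% ± 0.354 of the summed reads per kb in the induced and 45.9% ± 0.479 in the uninduced libraries, and Mal-A2 provided 13.2% ± 0.154 and 7.98% ± 0.164. The shares of Mal-A3 were 8.12% ± 0.119 in the induced and 15.3% ± 0.300 in the uninduced libraries, and those of Mal-A4 were 6.40% ± 0.185 and 11.3% ± 0.167. Mal-A6 and Mal-A8 held 10.9% ± 0.248 and 5.78% ± 0.115 in the induced libraries, against 9.40% ± 0.194 and 5.08% ± 0.109 in the uninduced libraries.

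**Figure D2:**
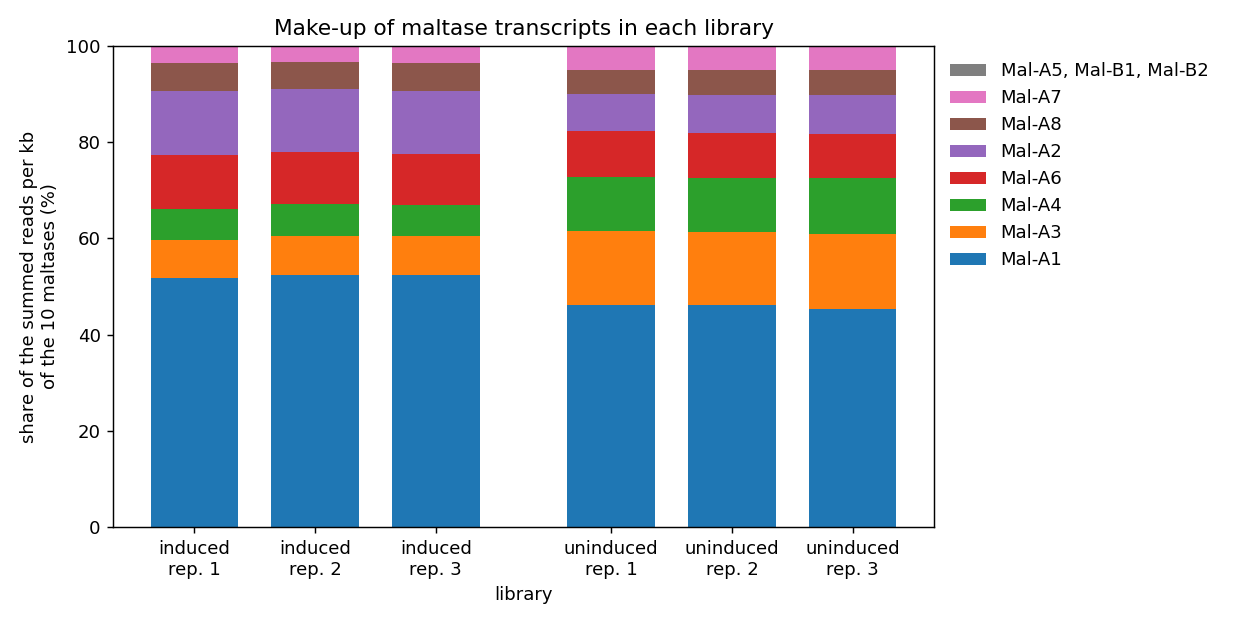
Share of the summed reads per kb of the 10 maltases that each gene took in each library, in percent, with the 3 induced libraries left of the 3 uninduced libraries. The bands of Mal-A3 and Mal-A4 are narrower, and that of Mal-A2 is wider, in all induced libraries, while Mal-A5, Mal-B1 and Mal-B2 are too scarce to be seen.

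To ask whether members differed in response, the log2 ratio of reads per kb between neighbours in the order of mean level was taken within each library, where the scaling cancels. In all 9 ratios the induced libraries did not overlap the uninduced ones. Among them, the ratio of Mal-B2 to Mal-B1 rested on 2 to 5 reads of Mal-B1 per library. The ratios of Mal-A1 to Mal-A6 and of Mal-A1 to Mal-A8, which are not neighbours in this order, did overlap. How often ratios between other pairs of loci overlap was not computed, so the count of 9 has no background share beside it. The log2 ratio of Mal-A4 to Mal-A2 was -1.07, -0.99 and -1.06 in the induced libraries, against 0.52, 0.47 and 0.51 in the uninduced libraries, so that Mal-A2 exceeded Mal-A4 in each induced library and fell short of it in each uninduced one. The log2 ratio of Mal-A1 to Mal-A3 was 2.68 ± 0.012 in the induced and 1.58 ± 0.042 in the uninduced libraries, and that of Mal-A3 to Mal-A6 was -0.42 ± 0.054 and 0.71 ± 0.048 (SD, n = 3 each, induced first). Changes of the 9 ratios had absolute sizes from 0.54 to 1.84 on the log2 scale, and the scarce members gave both the largest change and the largest spread. That change, of Mal-A5 over Mal-B2, came with SDs of 0.364 in the induced and 0.422 in the uninduced libraries, whereas among pairs of abundant members the SD within a condition was at most 0.054. Each gave p = 0.1 in the exact permutation test (2-sided, Benjamini-Hochberg adjusted p = 0.1 over 9 pairs), the smallest value that 3 libraries against 3 allow, so the test cannot pass a threshold of 0.05.

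Adjacent genes of the cluster differed in the size of their changes, apart from Mal-A3 and Mal-A4, whose changes were close. The Mal-A genes span 24301 bases with no other locus of the table between them, 5 on the plus and 3 on the minus strand, and the Mal-B genes span 5656 bases on the plus strand. Along the cluster the log2 fold changes were -1.0005 for Mal-A1, -0.46 for Mal-A2, -2.10 for Mal-A3, -2.01 for Mal-A4, -0.41 for Mal-A5, -0.98 for Mal-A6, -1.72 for Mal-A7 and -0.999 for Mal-A8. The members with the smallest changes, Mal-A2 and Mal-A5, thus lie beside Mal-A3 and Mal-A4, which are among those with the largest, and 122 bases separate Mal-A2 from Mal-A3. Plus-strand genes of the cluster ran from -2.01 to -0.41 and minus-strand genes from -2.10 to -1.0005.

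**Figure D3:**
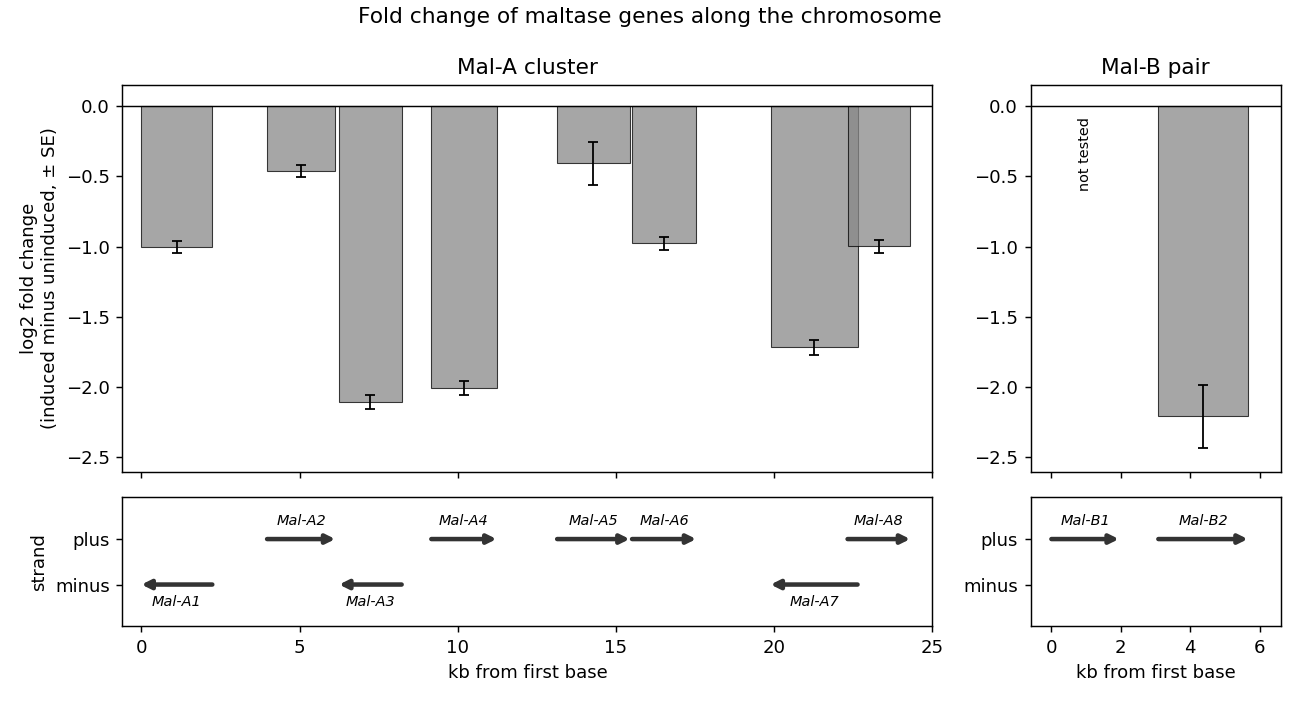
Log2 fold change (induced minus uninduced, ± SE) of each maltase gene, drawn over the extent of its transcript in kb from the first base of the Mal-A cluster (left) or the Mal-B pair (right), with arrows for the direction of transcription below. Bars near -0.4 and -0.5 stand beside bars near -2, and the bars of Mal-A7 and Mal-A8 overlap because their transcripts do.

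Genes flanking the cluster were taken by position. On the side of Mal-A1, the cytochrome P450 genes Cyp4e1 and Cyp4e2 had log2 fold changes of -1.38 ± 0.113 and -0.86 ± 0.058 (adjusted p = 1.5e-07 and 1.9e-08, edgeR), and part of Cyp4e1 overlaps Mal-A1. Beyond Mal-A8, the receptor gene mtt had a normalised count of 14.2 ± 3.00 in the induced and 14.2 ± 2.64 in the uninduced libraries (log2 fold change 0.03, adjusted p = 0.93), and CG12780 fell by 0.40 ± 0.087 (adjusted p = 0.0016). Beside the Mal-B pair, CG31704 rose by 0.46 ± 0.107 (adjusted p = 0.0024) and the shared locus CG14933/CG42486 fell by 0.61 ± 0.121 (adjusted p = 6.5e-04, edgeR), while CG42751 and Or33a, on the other side, had 0 and 0 induced reads and 2 and 0 uninduced reads.

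The 3 loci outside the family whose profile over the 6 libraries was nearest to that of Mal-A1 were hiro, CG15209 and CG3609, with root mean square differences of 0.026 on the log2 scale after centring each locus. Hiro, for example, had 3269 ± 47.3 normalised counts in the induced and 6483 ± 220 in the uninduced libraries. Mal-A6 and Mal-A8 followed closely, at 0.030 and 0.032, whereas Mal-A2 (0.271), Mal-A7 (0.362), Mal-A4 (0.503) and Mal-A3 (0.552) were farther from Mal-A1. The 6 libraries fall into 2 conditions, so loci with a similar fold change lie close by this measure.

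In the authors' deposited gene table, 6 members were listed, with mean log2 fold changes of -1.021 for Mal-A1, -2.125 for Mal-A3, -2.027 for Mal-A4, -1.799 for Mal-A7, -1.021 for Mal-A8 and -2.294 for Mal-B2. The description deposited with the transcript table states its ratio as control over treatment, but the read counts show these values to be induced over uninduced. Mal-A6 was not listed, although the authors' deposited table of transcripts gives it a log2 fold change of -1 with an adjusted p-value of 1.7e-57. No gene in the authors' deposited gene table has a mean log2 fold change between -1.001 and 0.133, so a fall of less than 2-fold, as for Mal-A2, does not appear there.

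Other enzymes that split carbohydrates mostly fell as well. Of 17 genes listed, 16 were tested, 12 fell and 2 rose, with a median log2 fold change of -1.04 beside 0.03 for all tested loci. Among all tested loci 26.8% fell and 27.6% rose, the shares to set beside this count and the later ones. Amy-p, which encodes amylase, had 3613 ± 141 normalised counts in the induced and 17012 ± 953 in the uninduced libraries (log2 fold change -2.24 ± 0.055), although it may share reads with its near-identical copy Amy-d. The genes tobi, an alpha-glucosidase known as a target of brain insulin (-2.17 ± 0.062), LManIV, a lysosomal mannosidase (-2.21 ± 0.086), and Amyrel, an amylase relative (-2.07 ± 0.170), fell too, with adjusted p-values of 1.5e-07 or lower (edgeR). The 2 that rose were Treh, which encodes trehalase, and GCS2alpha, an endoplasmic reticulum glucosidase gene named after its value was seen (0.17 ± 0.049). LManII (-0.09) and LManVI (0.06) did not pass. Among 6 relatives of the maltases in glycoside hydrolase family 13, of which some are in the first list too, 6 fell and 0 rose (median -1.16), among them Amy-d (-1.42 ± 0.049) and CG9485, which encodes the glycogen debranching enzyme (-0.90 ± 0.065). This list also holds AGBE (-0.61 ± 0.066) and CD98hc (-0.66 ± 0.056), named after their values were seen. It is thus not confined to enzymes that split carbohydrates.

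Sugar transporter genes also fell more often than they rose. Of the 24 distinct genes found, 20 were tested, 15 fell and 2 rose, with a median log2 fold change of -1.09. The largest falls were those of CG33281 (-3.49 ± 0.416), CG33282 (-2.51 ± 0.227), Slc45-1 (-2.42 ± 0.248) and CG8837 (-2.29 ± 0.278), all of them scarce, the most abundant being CG33282 with 13.02 ± 3.92 normalised counts in the induced and 72.8 ± 11.0 in the uninduced libraries, while CG8249 (0.04) and pippin (-0.11) did not pass. The 2 that rose, named after their values were seen, were CG6484 (0.35 ± 0.052) and nebu (0.28 ± 0.056).

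Genes of glycogen and trehalose metabolism moved both ways, Treh being listed here too, with 7 of 10 falling and 3 rising (median -0.32). Tps1, which makes trehalose, fell by 1.36 ± 0.070 on the log2 scale, whereas Treh, which splits it, had 7879 ± 142 normalised counts in the induced and 4782 ± 83.8 in the uninduced libraries (log2 fold change 0.72 ± 0.045). UGP and Pgm1, which supply glycogen synthesis, had log2 fold changes of -0.77 ± 0.073 and -0.74 ± 0.068.

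Of 11 genes listed as regulators of sugar-responsive and digestive genes, 5 fell and 0 rose (median -0.12), beside 26.8% and 27.6% of all tested loci. Without uninduced replicate 2 the numbers were 3 and 1, and without uninduced replicate 3 they were 8 and 0. The activin ligand gene daw fell by 1.92 ± 0.358 on the log2 scale from few reads, with 16 reads in the induced and 42 in the uninduced libraries. The transcription factor gene foxo (-0.73 ± 0.064), the sugar-sensing factor gene Mondo (-0.46 ± 0.112) and sug, which acts downstream of Mondo (-0.21 ± 0.050), also fell. The other gene that fell, put (-0.17 ± 0.068, adjusted p = 0.047, edgeR), was named after its value was seen. With library totals as scaling 2 fell and 1 rose. GATAe, a factor of midgut identity (-0.11, adjusted p = 0.107), and Smox (-0.02, adjusted p = 0.893) did not pass.

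**Figure D4:**
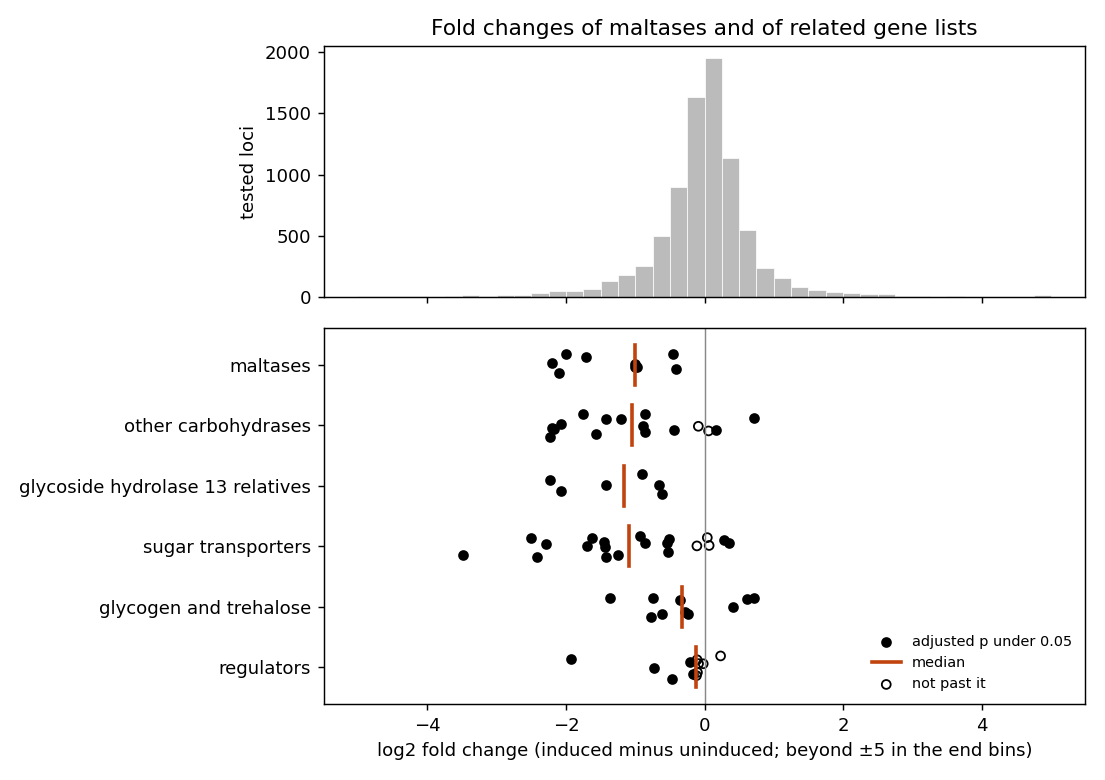
Log2 fold changes (induced minus uninduced) of all 8236 tested loci as a histogram (top) and of the tested maltases and 5 related gene lists as points (bottom). Filled points passed an adjusted p under 0.05, open points did not, and red bars are list medians, at -1.0005 for the maltases and -0.12 for the regulators.

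Markers of cell types and of neighbouring tissues were read beside these values, where 26.8% of all tested loci fell and 27.6% rose. Of 7 enterocyte markers 3 fell and 2 rose (median -0.06), with Amy-p again among them, Npc1b at -1.03 ± 0.052 and nub at 0.64 ± 0.051. Their summed normalised counts ranged from 63504 to 66222 in the induced and from 87118 to 91554 in the uninduced libraries. Amy-p (means of 3613 induced and 17012 uninduced) and Npc1b (10107 and 20644) had the largest differences in count within this sum. Myo31DF (0.06) and alphaTry (-0.06) did not pass and mex1 rose (0.38 ± 0.061). The other marker that fell, betaTry (-0.23 ± 0.051), was named after its value was seen. All 5 progenitor markers measured rose (median 1.497, sums of 3681 to 3861 in the induced and 1195 to 1363 in the uninduced libraries). Of 10 enteroendocrine markers 6 fell and 1 rose, and the 4 markers of the copper cell region, the acidic segment of the middle midgut, all fell (median -0.76), with sums of 2455 to 2611 in the induced and 3356 to 3687 in the uninduced libraries. Of 8 markers of Malpighian tubule and hindgut 7 fell and 0 rose (median -1.67), with sums of 812 to 895 in the induced and 1881 to 2093 in the uninduced libraries. All 4 tested fat body markers fell (median -1.43, sums of 1279 to 1315 in the induced and 3515 to 3670.4 in the uninduced libraries), and Lsp2 and Fbp1 each had 1 read in the induced and 1 in the uninduced libraries. Of 7 visceral muscle markers 1 fell and 1 rose, and of 3 tested markers each of trachea and of haemocytes 0 fell and 0 rose (edgeR), with He at 0 reads in all libraries. The muscle markers that fell numbered 0 without induced replicate 2, induced replicate 3 or uninduced replicate 2 and 3 without uninduced replicate 3. The enteroendocrine markers that rose numbered 0 without induced replicate 1, induced replicate 3 or uninduced replicate 2 and 2 without uninduced replicate 3. Without uninduced replicate 2, 1 tracheal marker rose. The part of these differences in the maltase result was not tested.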

How the data were processed

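Poly(A) RNA-seq was done on posterior midguts, 3 libraries per condition. The authors deposited whole-number read counts per transcript, used here, with normalised signal columns, p-values and log2 fold changes, of which the fold changes and p-values were copied for the family and the signal served as an alternative. The submitters' processing notes name DESeq; for the aligner, and likewise the genome build, the answer is not given in the sources used here, and strand use is not stated. Each locus was read from its row with the highest mean count (24047 rows, 13822 loci), and 12825 loci matched RefSeq gene symbols by Entrez identifier. In edgeR 4.0.16 (R 4.3.3), loci passing filterByExpr were scaled by TMM and tested with the quasi-likelihood F test, induced minus uninduced, with Benjamini-Hochberg adjustment and a threshold of 0.05. SE is the absolute log2 fold change over the square root of F. Normalised counts are reads over a scaling factor averaging 1. Depth ran from 6821908 to 14303722 reads, and intervals cover counting error only. The fit was also run on simulated data with far fewer changed loci than were called here. That run therefore does not vouch for the calls.

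Members and gene lists were chosen with earlier results of these data known. In each list named genes were at most 4 that passed, ranked by absolute log2 fold change, and at most 2 that did not pass, ranked by mean count, and outside the lists Gli, the 3 loci nearest in profile to Mal-A1 and the 2 flanking genes on each side. Exceptions are named as chosen after their values were seen. Alternatives were other scalings, no filter, sums over rows, a replicate block, the DESeq2 1.42.0 Wald test, limma 3.58.1 voom and leaving out each library. Pairs of members were compared by exact permutation tests in scipy 1.17.1.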

Additional observations from a re-analysis of the deposited data

How the results depend on the processing

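In all alternatives with a test, the log2 fold changes of Mal-A1 to Mal-A4, Mal-A6 to Mal-A8 and Mal-B2 kept their direction and passed the threshold. For Mal-A5 the direction held and 8 alternatives missed the threshold, so the count of members that fell was 8 or 9. With library totals as scaling 3737 loci rose and 1512 fell, 4 sugar transporters rose, 2 regulators fell and 1 rose, 4 genes of glycogen and trehalose metabolism fell, 4 enterocyte, 3 enteroendocrine, 2 visceral muscle and 2 tracheal markers rose, 0 muscle markers fell, and Mal-A1 stood at -0.81, Mal-A2 at -0.27 and Mal-A5 at -0.22. The number of regulators that rose was 1 with upper quartile scaling, with no filter and with the replicate block. The family's share of reads was 0.200% induced and 0.432% uninduced over summed transcript rows, and 0.430% and 0.848% without mitochondrial loci. Both alternatives change the total of which the share is taken. In induced replicate 1 this total was 29292682 reads over all rows, against 14303722 with 1 row per locus. Of the latter, 7.85% were mitochondrial. Leaving out 1 library in turn gave 1951 to 2466 loci that rose and 1993 to 2492 that fell, 8 to 9 members that fell and 0 to 0 that rose, 1 to 2 other carbohydrases that rose and 11 to 13 that fell, 14 to 15 transporters that fell and 2 to 2 that rose, 3 to 8 regulators that fell and 0 to 1 that rose, 6 to 7 genes of glycogen and trehalose metabolism that fell, and shares of 0.394% to 0.396% induced and 0.779% to 0.789% uninduced. Replicate numbers stand in the columns only, and the labels do not say whether they mark pairs. Same-numbered libraries did not deviate together (correlations of -0.155, 0.047 and -0.093 over 6838 loci). Nor did each correlate best with its own number (induced 1 with uninduced 3 gave 0.189). With 3 libraries per condition these small correlations cannot settle whether libraries were paired. The replicate block gave 2168 loci that rose, 2113 that fell and 8 members that fell, Mal-A5 being lost (adjusted p = 0.061, edgeR). The muscle markers that fell numbered 2 with DESeq2 size factors and 0 with the replicate block, and the enteroendocrine markers that rose numbered 0 with the DESeq2 Wald test. Depth limits Mal-B1, Mal-A5 and Mal-B2.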
